A study of Mus musculus with 6 samples.

Results

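The 34 genes described here are genes of hepatocyte function, 24 of which encode proteins that hepatocytes secrete into plasma and 10 of which encode intracellular enzymes, a fatty acid binding protein and a transcription factor. They were taken as a named list and matched by symbol in 6 RNA libraries of mouse primary hepatic stellate cells. All 34 were found among the 40879 gene symbols of the files. The list was drawn up with these libraries' values in view, above all high values in the second vehicle library, so the levels and group differences of its members are given as a description without a test. The libraries came from primary stellate cells of wild-type male mice, 3 kept with vehicle and 3 with APB-R3, an engineered interleukin-18 binding protein, for 24 h. The dose of APB-R3 is 150 µg/ml in the series text and 150 µg/kg in the sample text. The labels do not say if the replicates are different animals or cultures, so any p-value reflects spread among these libraries alone, which may be technical. Library totals ran from 8323809 to 10792531 counts, and a level is given as CPM, the count per megaread of the library total. The kit primes at the 3′ end and makes 1 fragment per transcript, so CPM of different genes can be set side by side without a length correction.

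Hepatocytes make most of the proteins of blood plasma, among them albumin, the apolipoproteins, the fibrinogen chains and many protease inhibitors. In the acute-phase response, interleukin-6 and interleukin-1 act on hepatocytes through STAT3, NF-kB and C/EBP factors and raise serum amyloid A, haptoglobin, hemopexin, orosomucoid and fibrinogen. Hepatocytes are also the cells of the urea cycle, gluconeogenesis and cytochrome P450 metabolism, and stellate cell preparations are made by separating the other liver cells from them.

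Markers of several liver cell types were counted in every library. The 10 markers of activated stellate cells summed to between 614 and 847 CPM in a library and the 10 of quiescent stellate cells to between 414 and 486 CPM, while the 12 markers of sinusoidal endothelium summed to between 5643 and 6719 CPM and the 12 of macrophages to between 403 and 679 CPM. Against these, the 34 hepatocyte genes summed to between 35.6 and 54.4 CPM in 5 libraries and to 218 CPM in vehicle replicate 2. In such bulk samples, fewer hepatocytes and less RNA per hepatocyte cannot be told apart. Counts of genes with near-identical copies, here Saa1 and Saa2, Serpina1c and Serpina3k, are uncertain because the handling of reads shared between copies is not given.

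Promoter sequence was looked at because many of the 34 genes were high together in 1 library. Of the 34, 25 had a promoter in the RefSeq table for GRCm38.p6, with 27 windows from 250 bases before to 50 bases after a start site. Windows were searched on both strands for motifs of factors active in hepatocytes and for the TATA box, 5 of which are given here, and the share of all 32851 windows of the same length that hold each motif is given beside the members' share. The C/EBP motif TTNNGCAA was in 10 of the 27 windows (37.0%) against 10.8% of all windows. Those windows belong to Saa1, Saa2, Fga, Fgb, Hpx, Alb, Apoa2, Apob, Ahsg and Fabp1. The TATA box motif TATAAA was in 7 windows (25.9%) against 13.6%, and the STAT motif TTCNNNGAA in 3 windows (11.1%), those of Fga, Fgb and Vtn, against 8.30%. The NF-kB motif (GGGA and CC with 4 bases between) was in 4 windows (14.8%) against 20.7%. The HNF4 motif CAAAGTCCA was in 1 window (3.70%), that of Cyp3a11, against 0.475%. A match is a stretch of letters and not a measured binding site.

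Below are the 220 bases before the start site of 6 genes, 5′ to 3′ on the gene's own strand. They are shown because each holds a C/EBP motif. Of them, 5 belong to genes that were high in vehicle replicate 2 and had at most 14 counts in any other library. Alb is the gene that had at least 24 counts in every library. Capitals mark the matches, which are the C/EBP motif in all 6 and, in Fgb, also a STAT motif upstream of it that reads as a match on both strands. No 2 matches printed here overlap. The stretches are chr7:46742981-46743200 (minus strand) for Saa1, chr7:46751613-46751832 (plus strand) for Saa2, chr3:83049864-83050083 (minus strand) for Fgb, chr3:83025933-83026152 (plus strand) for Fga, chr7:105600117-105600336 (minus strand) for Hpx and chr5:90460650-90460869 (plus strand) for Alb, all on GRCm38.p6.
Saa1: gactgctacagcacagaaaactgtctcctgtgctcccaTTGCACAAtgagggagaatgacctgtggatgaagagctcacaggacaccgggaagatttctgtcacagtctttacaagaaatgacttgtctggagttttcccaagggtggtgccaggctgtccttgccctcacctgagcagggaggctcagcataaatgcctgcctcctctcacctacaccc
Saa2: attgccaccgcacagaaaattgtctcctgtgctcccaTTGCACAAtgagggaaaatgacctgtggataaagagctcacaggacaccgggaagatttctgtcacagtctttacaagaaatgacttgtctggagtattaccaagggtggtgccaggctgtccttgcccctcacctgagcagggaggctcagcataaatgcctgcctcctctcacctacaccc
Fgb: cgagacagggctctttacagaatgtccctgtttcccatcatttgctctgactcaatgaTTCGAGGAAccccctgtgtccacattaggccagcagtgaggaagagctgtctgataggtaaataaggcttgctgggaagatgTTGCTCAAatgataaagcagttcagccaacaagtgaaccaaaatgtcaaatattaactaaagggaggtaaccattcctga
Fga: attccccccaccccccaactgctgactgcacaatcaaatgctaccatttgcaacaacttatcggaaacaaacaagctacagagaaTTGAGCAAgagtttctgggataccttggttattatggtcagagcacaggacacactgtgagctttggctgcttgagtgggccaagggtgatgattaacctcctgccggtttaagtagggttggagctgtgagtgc
Hpx: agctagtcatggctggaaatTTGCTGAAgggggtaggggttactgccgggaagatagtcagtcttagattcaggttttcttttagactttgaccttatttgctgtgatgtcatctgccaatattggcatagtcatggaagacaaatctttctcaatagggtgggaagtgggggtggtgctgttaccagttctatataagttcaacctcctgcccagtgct
Alb: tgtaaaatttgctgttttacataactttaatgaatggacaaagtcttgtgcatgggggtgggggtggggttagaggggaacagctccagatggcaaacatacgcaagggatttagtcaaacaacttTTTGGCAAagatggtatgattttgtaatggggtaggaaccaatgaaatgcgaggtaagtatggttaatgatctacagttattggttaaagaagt

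The Saa1 and Saa2 stretches were nearly the same sequence, with 211 identical bases of 219 aligned (96.3%), and both hold their C/EBP match in the same letters. Fgg, the gene of the gamma chain of fibrinogen, held none of these 5 motifs in its window, and the STAT match of Fga lies further upstream than the bases printed. The table gives Saa1 and Saa2 on chromosome 7 and Fga, Fgb and Fgg on chromosome 3.

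Vehicle replicate 2 held 2307 of the 4515 counts of the 34 genes over all libraries, or 51.1%, while it held 17.4% of all counts. Among the 30 genes with at least 10 counts, 24 had their highest CPM in this library (80.0%). Of all 15883 genes with at least 10 counts, 16.5% were highest there. Of the 30 genes, 23 had at least 10 counts in the other 5 libraries, and the rest reached 10 only with vehicle replicate 2. Over all genes it was 15522 of the 15883. The other leaders were APB-R3 replicate 3 for 4 of the 30 genes, and vehicle replicate 1 and APB-R3 replicate 2 for 1 gene each. The 34 genes took 0.0218% of the counts of vehicle replicate 2 (exact binomial 95% interval 0.0209% to 0.0227%) and between 0.00356% and 0.00544% of those of the other libraries. Such intervals, and the limits for counts of 0 below, cover counting error only.

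**Figure D1:**
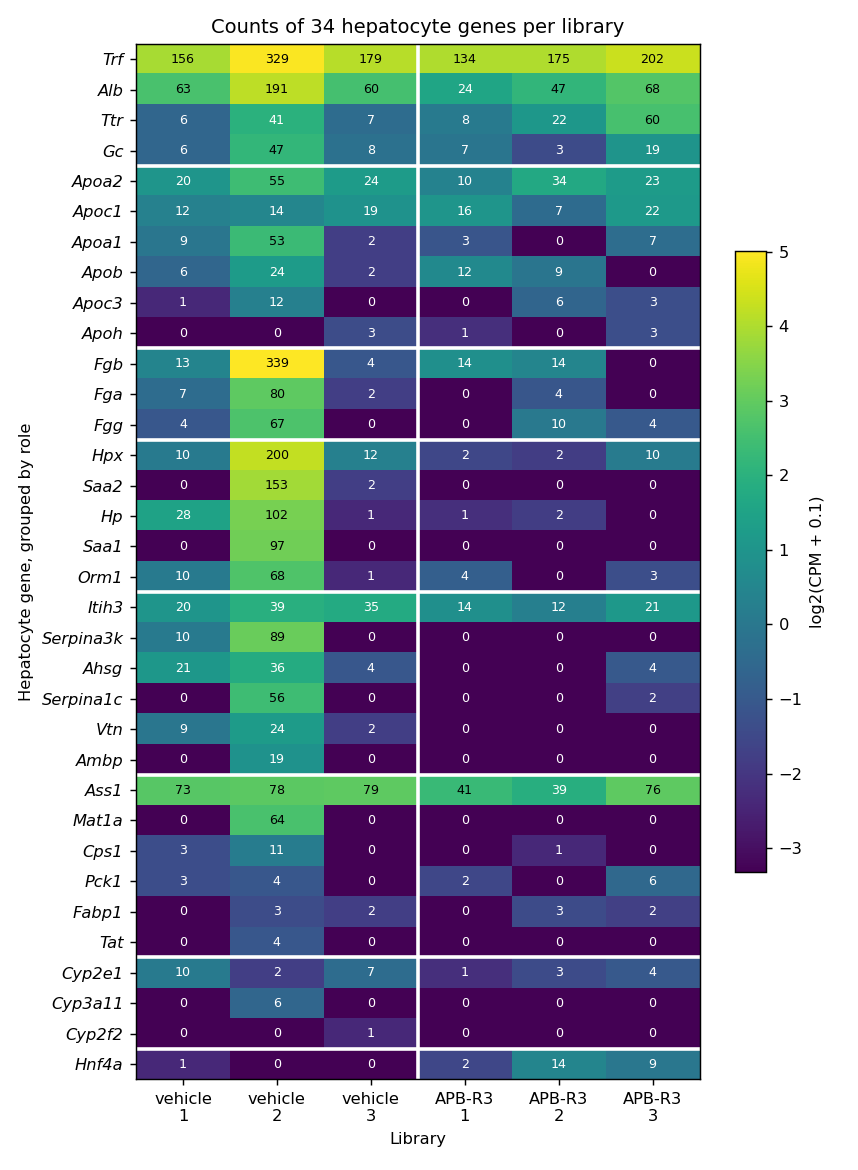
Number of counts of each of the 34 genes (rows, grouped by role) in each library (columns), printed in the cells, with colour showing log2(CPM + 0.1). The fibrinogen and acute-phase rows are bright in vehicle replicate 2, where Fgb had 339 counts, while Trf, Alb and Ass1 are visible in all 6 libraries.

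The 3 fibrinogen chains were all highest in vehicle replicate 2. Fgb, the beta chain, had 13, 339 and 4 counts in the vehicle libraries, in the order of their replicate numbers, and 14, 14 and 0 in those with APB-R3, an order kept for all genes. Fga, the alpha chain, had 7, 80 and 2 counts in vehicle and 0, 4 and 0 in APB-R3. Fgg, the gamma chain, had 4, 67 and 0 counts in vehicle and 0, 10 and 4 in APB-R3. In each of the 3 genes vehicle replicate 2 stood above all other libraries and the remaining vehicle libraries overlapped with APB-R3. The ratio of vehicle replicate 2 to the next highest library was 19.1 for Fgb, 11.3 for Fga and 6.84 for Fgg, as ratios of CPM.

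The 5 acute-phase genes were also all highest in vehicle replicate 2. Saa1 and Saa2 encode serum amyloid A, an apolipoprotein of high-density lipoprotein in inflammation. Saa1 had 97 counts in vehicle replicate 2 and 0 in every other library, which is at least 153-fold higher against a limit of 3 counts over the other 5 libraries pooled. Saa2 had 0, 153 and 2 counts in vehicle and 0 in each APB-R3 library. Both genes were thus almost uncounted outside 1 library. Hpx, the haem scavenger hemopexin, had 10, 200 and 12 counts in vehicle and 2, 2 and 10 in APB-R3. Orm1, orosomucoid, had 10, 68 and 1 counts in vehicle and 4, 0 and 3 in APB-R3. The vehicle and APB-R3 libraries overlapped in both genes once vehicle replicate 2 is set aside. Hp, the haemoglobin-binding protein haptoglobin, had 28, 102 and 1 counts in vehicle and 1, 2 and 0 in APB-R3, so that 2 vehicle libraries were above all APB-R3 libraries and the third was not. Hp is also made by neutrophils, and the 7 neutrophil markers summed to 9.97 CPM in vehicle replicate 1, to 3.40 CPM in vehicle replicate 2 and, over the remaining 4 libraries, to 0.952 to 4.47 CPM. Hp was highest in vehicle replicate 2 and next highest in vehicle replicate 1. Of the neutrophil markers, 3 of the 4 with at least 10 counts were highest in vehicle replicate 1, and Ly6g and Elane were at 0 in all libraries. The part of neutrophils in the Hp counts was not tested. Saa3, a serum amyloid gene that macrophages and fibroblasts also express, had 130, 292 and 112 counts in vehicle and 63, 71 and 91 in APB-R3.

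Protease inhibitors and other secreted proteins were split. Serpina3k, a serpin of the antichymotrypsin family, had 10, 89 and 0 counts in vehicle and 0 in each APB-R3 library. Serpina1c, of the alpha-1-antitrypsin family, had 0, 56 and 0 counts in vehicle and 0, 0 and 2 in APB-R3. Ambp, the precursor of alpha-1-microglobulin and bikunin, had 19 counts in vehicle replicate 2 and 0 elsewhere, at least 30.025-fold higher against the pooled limit. These 3 genes were counted almost only in vehicle replicate 2 and, for Serpina3k, in vehicle replicate 1. Ahsg, the mineral-binding glycoprotein fetuin-A, had 21, 36 and 4 counts in vehicle and 0, 0 and 4 in APB-R3. Vtn, the adhesive glycoprotein vitronectin, had 9, 24 and 2 counts in vehicle and 0 in each APB-R3 library. Vtn was the only one of the 30 genes with at least 10 counts in which every vehicle library lay above every APB-R3 library, a pattern found in 4.16% of all genes with at least 10 counts. Its lowest vehicle value rests on 2 counts, under the 3 counts that a count of 0 allows. Itih3, a heavy chain that links to hyaluronan, was counted everywhere, with 20, 39 and 35 counts in vehicle and 14, 12 and 21 in APB-R3, and its groups overlapped.

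Carrier proteins had members counted in every library. Trf, the iron carrier transferrin, which other cell types can also express, was the most counted of the 34 genes, with 156, 329 and 179 counts in vehicle and 134, 175 and 202 in APB-R3. Alb, albumin, had 63, 191 and 60 counts in vehicle and 24, 47 and 68 in APB-R3. Gc, the vitamin D binding protein, had 6, 47 and 8 counts in vehicle and 7, 3 and 19 in APB-R3. In these 3 genes vehicle replicate 2 was highest, with ratios of CPM to the next library of 1.55 for Trf, 2.68 for Alb and 2.36 for Gc, and the other vehicle libraries overlapped with APB-R3. Ttr, the thyroxine and retinol-binding-protein carrier transthyretin, had another order, with 6, 41 and 7 counts in vehicle and 8, 22 and 60 in APB-R3, and APB-R3 replicate 3 as the highest library.

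Among the apolipoproteins, Apoa1, the main protein of high-density lipoprotein, had 9, 53 and 2 counts in vehicle and 3, 0 and 7 in APB-R3. Apoa2, the second protein of that particle, had 20, 55 and 24 counts in vehicle and 10, 34 and 23 in APB-R3. Apob, the structural protein of very-low-density lipoprotein, had 6, 24 and 2 counts in vehicle and 12, 9 and 0 in APB-R3. Vehicle replicate 2 led in all 3 genes, by 5.81 times the next library in CPM for Apoa1 but 1.65 times for Apoa2 and 1.57 times for Apob. Apoc1, a small exchangeable apolipoprotein that macrophages also express, had 12, 14 and 19 counts in vehicle and 16, 7 and 22 in APB-R3, with no library apart from the rest. Apoc3 and Apoh had 22 and 7 counts in all.

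Of the 10 intracellular genes, Ass1 and Mat1a had at least 30 counts. Ass1, the argininosuccinate synthase of the urea cycle, which endothelial cells also use to renew arginine, had 73, 78 and 79 counts in vehicle and 41, 39 and 76 in APB-R3. Mat1a, the hepatocyte enzyme that makes S-adenosylmethionine, had 64 counts in vehicle replicate 2 and 0 elsewhere, at least 101-fold higher against the pooled limit. Ass1 was thus counted in every library and Mat1a in 1. The urea cycle entry enzyme Cps1 had 15 counts in all, 11 of them in vehicle replicate 2, and the gluconeogenic enzyme Pck1 had 15 counts, 4 of them there. Fabp1, the liver fatty acid binding protein, had 10 counts in all and the tyrosine aminotransferase Tat 4. The 3 cytochromes P450 were at low counts. Cyp2e1, the ethanol-inducible enzyme of the zone around the central vein, had 10, 2 and 7 counts in vehicle and 1, 3 and 4 in APB-R3. Cyp3a11 had 6 counts, all in vehicle replicate 2, and Cyp2f2, a periportal enzyme, had 1 count in all. Counts this low do not allow the zonal origin of the RNA to be read.

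Hnf4a, the nuclear receptor that sustains hepatocyte gene expression, had 1, 0 and 0 counts in vehicle and 2, 14 and 9 in APB-R3. It was the only one of the 30 genes in which every APB-R3 library lay above every vehicle library, a pattern found in 4.78% of all genes with at least 10 counts. Its lowest APB-R3 value rests on 2 counts, under the 3 counts that a count of 0 allows. A count of 0 in vehicle replicate 2 allows up to 0.284 CPM. The library with the most plasma protein counts was thus one of those in which Hnf4a was not detected at this depth.

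**Figure D2:**
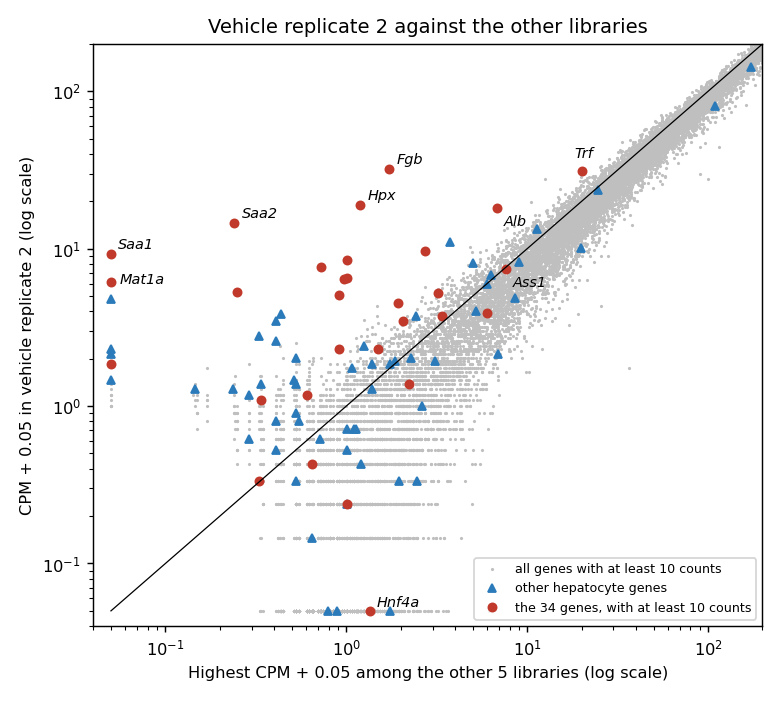
CPM in vehicle replicate 2 (vertical axis) against the highest CPM among the other 5 libraries (horizontal axis), both with 0.05 CPM added and on log scales, for genes with at least 10 counts. Red points are the hepatocyte genes described here, blue triangles the genes of 3 other hepatocyte lists and grey points all genes, and the line marks equality. Fgb, Hpx, Saa1, Saa2 and Mat1a lie far above the line, Alb and Trf closer to it and Ass1 on it.

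The 34 genes were counted in other proportions in vehicle replicate 2. Without Trf and Ass1, which other cell types can express, the sum of the remaining 32 genes was 179.7 CPM in vehicle replicate 2 and 14.5 to 26.8 CPM elsewhere, a ratio to the next library of 6.70 where that of all 34 genes was 4.01. The 8 fibrinogen and acute-phase genes made up 47.9% of the counts of the 34 genes in vehicle replicate 2 (exact binomial 95% interval 45.9% to 50.003%). Their share was 14.4% in vehicle replicate 1 (11.4% to 17.8%), 4.82% in vehicle replicate 3 (3.05% to 7.21%) and 7.09%, 7.86% and 3.10% in the APB-R3 libraries, with intervals from 1.82% to 10.9% over those 3 libraries. These 8 genes summed to 104.6 CPM in vehicle replicate 2, and no other library had more than 6.90 CPM or less than 1.69 CPM. The remaining 26 genes summed to 113.6 CPM against 33.0 to 52.7 CPM. Since the list was drawn up for high values in vehicle replicate 2, these shares are a description.

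The order of the genes changed with it. Trf, Ass1 and Alb were the 3 most counted of the 34 genes in each of the 5 other libraries, with between 58.3% and 69.7% of the 34 genes' counts. In vehicle replicate 2 the leaders were Fgb, Trf and Hpx, and Ass1 made up 3.38% of the counts. Fgb was 64.0% of the summed Fgb and Alb counts in vehicle replicate 2 (exact binomial 95% interval 59.7% to 68.1%). It was 17.1% in vehicle replicate 1 (9.43% to 27.5%), 6.25% in vehicle replicate 3 (1.73% to 15.2%), 36.8% in APB-R3 replicate 1 (21.8% to 54.0%), 23.0% in APB-R3 replicate 2 (13.2% to 35.5%) and 0% of 68 counts in APB-R3 replicate 3 (up to 5.28%). Fgb thus exceeded Alb in 1 library only.

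The level in vehicle replicate 2 above the mean of the other 5 libraries was 174 CPM over the 34 genes. Acute-phase genes gave 32.6% of that difference, fibrinogen chains 25.5%, carrier proteins 18.7%, inhibitors and matrix proteins 12.5%, apolipoproteins 5.66%, metabolic genes 5.14% and the 3 cytochromes 0.145%. Single genes with the most of it were Fgb at 31.1 CPM, Hpx at 18.2 CPM, Saa2 at 14.4 CPM, Trf at 14.2 CPM and Alb at 12.9 CPM.

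**Figure D3:**
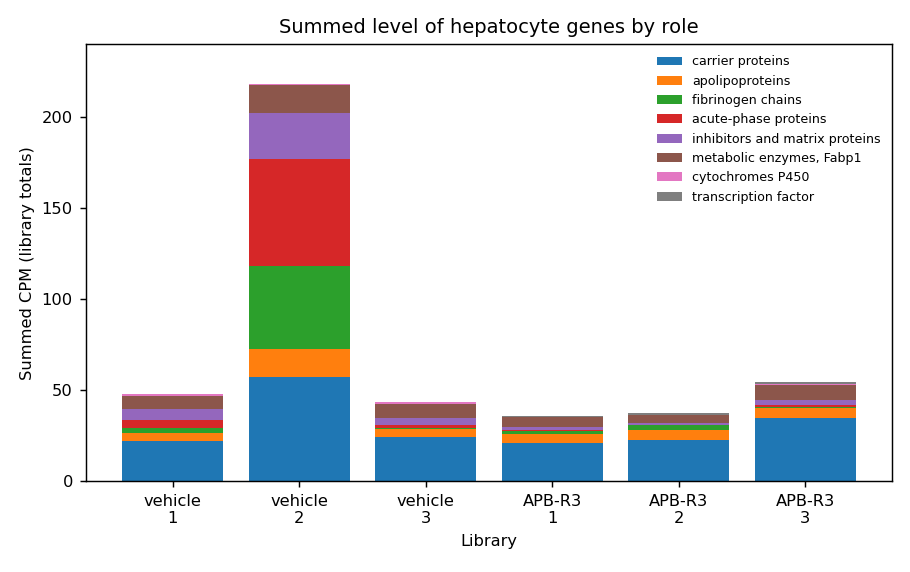
Summed CPM of the 34 genes in each library (bars), divided by the role of the gene product (colours). The bar of vehicle replicate 2 reaches 218 CPM, and its acute-phase and fibrinogen parts together are 104.6 CPM, against at most 6.90 CPM in any other library.

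Other hepatocyte genes, from 3 lists that do not share a gene with the 34, were read in the same way. These lists too were chosen with earlier results of these data known, so their values are a description. Of 52 other secreted protein genes, 26 had at least 10 counts and 16 of those were highest in vehicle replicate 2, against the 16.5% of all genes. Of those 26, 16 had at least 10 counts in the other 5 libraries, and the rest reached 10 only with vehicle replicate 2. The minimum of 10 counts itself thus favoured that library. The most counted of the 52 genes were Cp, the copper oxidase ceruloplasmin, Lrg1, Serpinf1 and the clotting factor gene F10. Cp had 231, 250 and 138 counts in vehicle and 206, 195 and 159 in APB-R3, and Lrg1, a glycoprotein of endothelial and liver cells, 21, 117 and 15 in vehicle and 17, 39 and 37 in APB-R3. Lrg1 was highest in vehicle replicate 2 by 3.01 times, whereas in Cp it had 0.955 times the CPM of the highest library, APB-R3 replicate 1. Serpinf1, a secreted serpin, had 27, 42 and 54 counts in vehicle and 24, 19 and 33 in APB-R3, and F10 8, 20 and 11 in vehicle and 15, 6 and 14 in APB-R3. The 52 genes summed to 81.3 CPM in vehicle replicate 2 against 27.2 to 39.5 CPM.

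In the 56 other metabolic genes and the 14 other transcription factor genes the sum was carried by 1 gene each, Aass and Nr5a2. Metabolic genes summed to 136.8 CPM there and to between 105 and 160 CPM in the other libraries, and 15 of the 56 had no count in any library, among them the bile acid synthesis enzyme Cyp7a1, the urea cycle enzyme Otc and the bile acid transporter Slc10a1. Of the 23 with at least 10 counts, 12 were highest in vehicle replicate 2, against 16.5% of all genes. Without that library, 16 of the 23 had at least 10 counts. The most counted were Aass, an enzyme of lysine breakdown, with 932, 856 and 1141 counts in vehicle and 428, 1083 and 1088 in APB-R3, and the glutathione transferase Gsta3, the argininosuccinate lyase Asl and the sterol hydroxylase Cyp27a1. Without Aass, left out after its values were seen, vehicle replicate 2 was the highest library, at 55.8 CPM against 40.2 to 53.8 CPM. Its 95% interval, 0.00514% to 0.00605% of counts, overlapped that of APB-R3 replicate 1, 0.00490% to 0.00590%. Gsta3 had 186, 106 and 124 counts in vehicle and 164, 141 and 118 in APB-R3, Asl 72, 51 and 71 against 71, 88 and 85, and Cyp27a1 39, 71 and 38 against 19, 68 and 41. Transcription factor genes summed to 169 CPM in vehicle replicate 2 and to between 158 and 187 CPM elsewhere. Most of that sum was Nr5a2, an orphan nuclear receptor, with 1570, 1513 and 1411 counts in vehicle and 1323, 1869 and 1461 in APB-R3. Without Nr5a2, chosen in the same way, vehicle replicate 2 was again highest, at 25.6 CPM against 13.6 to 24.6 CPM. Its 95% interval, 0.00227% to 0.00289% of counts, overlapped that of APB-R3 replicate 3, 0.00216% to 0.00279%. Cebpa had 78, 141 and 118 counts in vehicle and 92, 51 and 114 in APB-R3, Prox1 94, 86 and 80 against 40, 66 and 74, and the bile acid receptor gene Nr1h4 10, 20 and 32 against 20, 7 and 7. Genes of this list at 0 in all 6 libraries included Foxa1, Nr1i3 and Onecut1.

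A count over all genes was then made, with a rule chosen after these values were seen. Of the 10952 genes with at least 30 counts in vehicle replicate 2, 16 had more than 3 times the CPM of the next library there (0.146%). Of these 16, 12 were among the 34 genes, namely Apoa1, Fga, Fgb, Fgg, Hp, Hpx, Mat1a, Orm1, Saa1, Saa2, Serpina1c and Serpina3k, and the other 4 were on the list of secreted proteins. Those 4 were Lrg1, Pzp, Itih4 and Serpina1b. Pzp, a broad protease inhibitor of the macroglobulin family, had 50 counts in vehicle replicate 2 and 0 elsewhere. Itih4 had 4, 40 and 0 counts in vehicle and 0, 0 and 1 in APB-R3, and Serpina1b 2, 36 and 1 in vehicle and 3, 0 and 2 in APB-R3. By the same rule the other 5 libraries had between 0 and 6 such genes, none of them on a hepatocyte list. The 34 genes were listed for high values in vehicle replicate 2, and the other lists were chosen with earlier results known. Their place among the 16 genes is thus a description and no separate evidence. Outside all lists, the 8 genes that stood out most in vehicle replicate 2 were Egfem1, Pcdhb15, Rpgrip1, Fendrr, Calhm6, B3gntl1, Cyp2d22 and Ska3. Their counts there were between 32 and 108, with ratios to the next library between 2.07 and 2.76 after adding 0.1 CPM to each.

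Markers of other cell types were read in the same library, where 16.5% of all genes with at least 10 counts were highest. The 6 erythroid markers summed to 3.97 CPM there against 0.286 to 2.40 CPM, and the 3 with at least 10 counts, the globin genes Hba-a1, Hba-a2 and Hbb-bs, were all highest there. Markers of activated stellate cells were highest there in 4 of 10 genes, with a sum of 847 CPM against 614 to 770 CPM. Endothelial markers were highest there in 1 of 12 genes, macrophage markers in 0 of 11 and those of quiescent stellate cells in 2 of 8. For cholangiocytes it was 2 of 6 genes, and for portal fibroblasts and mesothelium 1 of 6. No lymphocyte marker had 10 counts, and Cd3e, Cd79a, Ncr1 and Trbc2 were at 0. The most counted markers were Lyve1, Cdh5, Pecam1 and Kdr for endothelium, Cd5l, Lyz2, Cd68 and C1qa for macrophages, Tagln, Col1a1, Col1a2 and Acta2 for activated and Dcn, Ecm1, Hgf and Rgs5 for quiescent stellate cells. For cholangiocytes they were Spp1, Cftr, Krt19 and Sox9, for portal fibroblasts and mesothelium Fbln2, Gpm6a, Wt1 and Thy1, and for neutrophils S100a8, S100a9, Csf3r and Retnlg. In edgeR's test over all genes 0 marker genes passed. Total counts in vehicle replicate 2, 10573916, were within the range of the other libraries. The part of these cell types in the hepatocyte counts was not tested.

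The signalling genes of the acute-phase response were read from a list of 17. Their sum was 2272 CPM in vehicle replicate 2 against 1934 to 2126 CPM, and 16 of the 17 were tested, with 0 passing and a median log2 fold change of 0.04. Without the count filter 2 of the 17 passed, against 0.0976% of all genes. They were Il1b, the gene of interleukin-1 beta, higher with APB-R3 (log2 fold change 3.24), and Saa3, lower (−1.14). Both were among the 16 tested with the filter, where neither passed. Their SE was 0.84 and 0.29 with the filter and 0.34 and 0.23 without it. Il1b had 20, 18 and 5 counts in vehicle and 304, 10 and 23 in APB-R3, so that 1 APB-R3 library stood apart. Without vehicle replicate 2 and with no filter, Il1b passed and Saa3 did not. Of the 17, 4 were highest in vehicle replicate 2 (Jak1, Lifr, Stat3 and Saa3), against 16.5% of all genes with at least 10 counts. In APB-R3 replicate 1 it was 8, against 2949 of those 15883 genes. The ratio of vehicle replicate 2 to the next library was 1.11 for Jak1, 1.30 for Lifr, 1.05 for Stat3 and 2.22 for Saa3. Il6, the cytokine that starts the hepatocyte response, had 21, 21 and 25 counts in vehicle and 45, 21 and 54 in APB-R3. Socs3, the feedback inhibitor of that pathway, had 642, 628 and 510 counts in vehicle and 518, 621 and 613 in APB-R3. The most counted were Jak1, Stat3, Cebpd and Tnfrsf1a, parts of the interleukin-6, C/EBP and tumour necrosis factor pathways. Stat3 had 4880, 5417 and 3552 counts in vehicle and 3762, 5252 and 3569 in APB-R3. In vehicle replicates 1, 2 and 3, Il6 was at 2.01, 1.99 and 2.38 CPM and Socs3 at 61.5, 59.4 and 48.5 CPM. The part of this signalling in the hepatocyte counts was not tested.

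The comparison of APB-R3 with vehicle asks whether the binding protein changed gene expression in these cultures. Over the 34 genes the summed level in the vehicle libraries was 103 ± 99.6 CPM, and with APB-R3 it was 42.6 ± 10.3 CPM (mean ± SD, n = 3 per group). Without vehicle replicate 2, the mean of the other 2 vehicle libraries was 45.7 CPM, and the difference between vehicle and APB-R3 went from 60.6 to 3.16 CPM. By role the values differed from that sum. Without vehicle replicate 2, the mean of the 5 acute-phase genes was 3.06 CPM in vehicle and 0.834 CPM with APB-R3, and that of the 6 inhibitor and matrix genes 4.83 and 1.82 CPM. In both roles every vehicle library lay above every APB-R3 library. The lowest vehicle value was 1.52 CPM against 1.29 CPM for the acute-phase genes and 3.90 against 2.68 CPM for the inhibitor and matrix genes. Those values rest on 16 against 13 and 41 against 27 counts, with overlapping 95% intervals. The cytochromes kept that order too, at 0.757 against 0.397 CPM, which rest on 8 against 4 counts. Hnf4a had the reverse, resting on 2 counts in APB-R3 replicate 1 against 1 in vehicle replicate 1. In both the 95% intervals overlapped. In the other roles the groups overlapped. Among all single genes with at least 10 counts, 4.16% had every vehicle library higher. Over all 34 genes, the vehicle libraries, at 48.0, 218 and 43.4 CPM, and the APB-R3 libraries, at 35.6, 37.7 and 54.4 CPM, overlapped.

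In a fit over all genes with edgeR's quasi-likelihood test, 0 of the 12776 genes tested passed an adjusted p of 0.05 (0%), with 425 at an unadjusted p under 0.05. DESeq2 and limma-voom also called 0, and their unadjusted p was under 0.05 in 376 and 427 genes. Only 9 of the 34 genes passed the filter on low counts, which asks for counts in several libraries and so keeps out genes that are high in 1 library. Of the other hepatocyte lists, 22 genes were tested and 0 passed, with medians of the log2 fold change of −0.21 over 5 secreted protein genes, 0.09 over 12 metabolic genes and −0.26 over 5 transcription factor genes, against 0.003 over all tested genes. Without vehicle replicate 2 these medians were 0.15, 0.29 and, over 6 genes, 0.06.

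For the 9 genes that were fitted, the log2 fold change of APB-R3 against vehicle is given with and without vehicle replicate 2. It was −3.53 (SE 0.999) for Fgb with all libraries and 0.28 (SE 1.06) without that library. It was −3.86 (SE 0.91) and −1.12 (SE 0.96) for Hpx and −1.09 (SE 0.39) and −0.32 (SE 0.38) for Alb. Trf went from −0.28 (SE 0.22) to 0.13 (SE 0.20), Apoa2 from −0.49 (SE 0.52) to 0.09 (SE 0.60) and Ttr from 0.79 (SE 0.68) to 2.25 (SE 0.79). Ass1 stayed at −0.45 (SE 0.31) and −0.43 (SE 0.34), Itih3 at −0.88 (SE 0.51) and −0.69 (SE 0.60), and Apoc1 at 0.13 (SE 0.63) and 0.09 (SE 0.72). The sign thus turned in 3 of the 9 genes, and the median over the 9 went from −0.49 to 0.091. Ttr, the gene furthest above 0 without vehicle replicate 2, has 60 of its counts in APB-R3 replicate 3, and with vehicle replicate 2 kept its log2 fold change was 0.79 with that library and −0.17 without it.

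**Figure D4:**
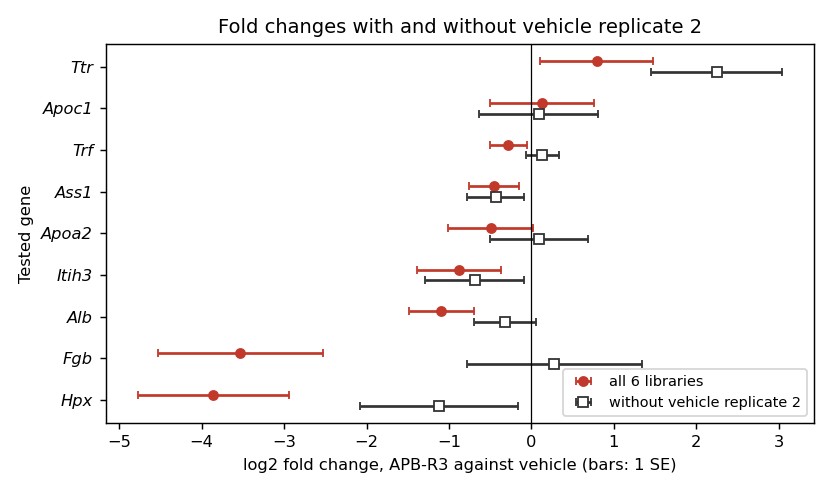
Log2 fold change of APB-R3 against vehicle (horizontal axis, bars 1 SE from edgeR's fit) for the 9 hepatocyte genes that passed the count filter, with all 6 libraries (red circles) and without vehicle replicate 2 (open squares). Fgb moves from −3.53 to 0.28 and Hpx from −3.86 to −1.12, while Ass1, Itih3 and Apoc1 keep nearly the same value.

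Without the count filter the fit covered 20496 genes, and 20 passed (0.0976%). Of these, 8 were among the 34 genes, all lower with APB-R3 (0.0585% of all genes were called in that direction), namely Fgb, Saa2, Hpx, Hp, Serpina3k, Saa1, Mat1a and Fga, and Pzp passed from the other hepatocyte lists. All 8 were highest in vehicle replicate 2, and they were chosen for the list with this contrast in view. With that library left out and no filter, 0 of the 8 passed, 2 of them (Saa1 and Mat1a) because no count was left. The log2 fold change in that fit was −5.30 for Serpina3k, −3.61 for Hp, −3.11 for Saa2, −1.65 for Fga, −1.13 for Hpx and 0.28 for Fgb. Over all genes 7 passed in that fit. With all 6 libraries, Fgb and Hpx were also fitted with the filter, with nearly the same log2 fold changes. Their SE was 0.999 and 0.91 with the filter and 0.38 and 0.50 without it. Calls without the filter thus may not carry the full spread among libraries.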

How the data were processed

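RNA of mouse primary hepatic stellate cells was sequenced in 3 vehicle and 3 APB-R3 libraries. Per the submitters' processing notes, reads were processed with bcl2fastq 2.20.0.422, fastp, STAR and HTSeq on GRCm39. For the annotation release, strand setting and molecular identifiers, nothing is given in the sources used here. The files deposited by the authors hold whole-number read counts per gene symbol, not normalized. Any 2 libraries differed by more than sampling noise (chi-square per degree of freedom between 5.54 and 13.6). The header inside each file carries another number than the sample title, and the title was used.

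The 34 genes and all other lists, 14 lists with 254 entries, were chosen with earlier results of these data known. CPM used library totals. edgeR 4.0.16 (R 4.3.3) was used with filterByExpr (minimum count 10, minimum total 15), TMM and the quasi-likelihood test, with Benjamini-Hochberg adjustment over all tested genes, and was tested on simulated data. SE is the log2 fold change over the square root of F. Genes named are all 34 genes, with counts in every library from 30 counts up, the 4 most counted genes of each other list with 10 counts and the 8 outside all lists that stood out most in vehicle replicate 2. Others named were chosen after their values were seen. Alternatives were DESeq2 1.42.0 and its size factors, limma 3.58.1 (voom), library size only, no filter, a replicate block and each library left out. Promoters came from RefSeq's GRCm38.p6 table, another build than that of the counts, and no coordinate was carried over. Results on a few listed genes and 1 motif are not reported here.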

Additional observations from a re-analysis of the deposited data

How the results depend on the processing

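The number of genes passing over all genes stayed at 0 with DESeq2 size factors, library size only, DESeq2's Wald test, limma-voom and the replicate block. It was 20 with no low-count filter, 7 with no filter and without vehicle replicate 2 (added after seeing the data), and between 0 and 1 with 1 library left out, the 1 being Hp without vehicle replicate 3. Of other hepatocyte genes, 1 passed with no filter, Pzp, with 50 counts in vehicle replicate 2 and 0 elsewhere. With no filter and without that library, 0 passed. The cause of the Pzp counts there was not tested. The median log2 fold change of the 34 genes that could be fitted, −0.49 over 9 genes, was −2.39 over all 34 with no filter, where more genes enter, and ran from −1.34 (without vehicle replicate 3, 15 genes) to 0.091 (without vehicle replicate 2) with 1 library left out. It was −1.27 without APB-R3 replicate 3. The replicate block gave −0.50 and 0 genes. Same-numbered libraries had correlations of deviations of 0.022, 0.027 and 0.048, each the highest for its number, which is a hint from the data and does not pair them. The number of genes highest in vehicle replicate 2 was 24 of 30 on all 4 scales and 20 of the 23 with at least 30 counts. The difference in summed level, 60.6 CPM, was between 3.16 and 90.5 CPM with 1 library left out, 57.1 CPM without Trf and 25.2 CPM without the 8 acute-phase and fibrinogen genes (added after seeing the data). Counts under 10 in a library limit what can be said of single genes.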
